A study of Mus musculus with 12 samples.

Results

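The genes described here are 43 genes of the extracellular matrix and of hepatic stellate cells, the vitamin A-storing pericytes of the liver sinusoid. They were taken by name from a list of collagens, matrix proteins, cross-linking enzymes, proteases, protease inhibitors and stellate cell genes, and not by any measured value. All 43 were found among the 56065 genes of the files, each under 1 gene identifier, and 41 passed the filter on low counts that 13631 genes passed. Lox and Timp1 did not pass it and were not tested.

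Poly(A) RNA of about 50 mg of snap-frozen liver was sequenced in 12 libraries, 4 in each of 3 groups, all from mice labelled as male and AhR-floxed. A floxed allele is a gene flanked by recombination sites, which stays intact until a Cre recombinase acts on it, and the labels name no Cre. The mice were 8 weeks old at the start and stayed on their diet for 20 weeks. In the CD group 10 kcal% of the control diet was fat, sucrose was matched, and no injection is stated. MD was a diet meant to produce metabolic dysfunction-associated steatohepatitis, fatty liver with inflammation, in which fat gave 40 kcal% and fructose 20 kcal% and which held 2% cholesterol, given with vehicle, 0.2% DMSO in saline, injected into the peritoneum 3 times a week. MD+CA was the MD diet with 12 mg/kg of cinnabarinic acid injected on the same schedule. Cinnabarinic acid is a product of the kynurenine pathway of tryptophan breakdown and binds AhR, the aryl hydrocarbon receptor, a transcription factor. MD against CD therefore compares diets and, if CD mice were not injected, also vehicle injection, while MD+CA against MD compares the compound with its vehicle on 1 diet. The labels do not say that the 4 libraries of a group came from 4 mice, so p-values measure the spread between libraries.

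In a healthy liver stellate cells are quiescent and hold vitamin A as retinyl esters made by Lrat. During chronic injury they can become contractile, matrix-producing myofibroblasts, a change marked by Acta2 and driven by transforming growth factor beta and platelet-derived growth factor. Their product is scar rich in collagens I and III, which lysyl oxidases cross-link, which metalloproteases cut and which tissue inhibitors of metalloproteases protect. Several matrix proteins of the liver have other sources: hepatocytes secrete much of the fibronectin of plasma, and they also make collagen XVIII.

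The libraries held 9089586 to 14492587 assigned reads. Protein-coding mitochondrial transcripts took 4.75 to 5.88% of the reads in CD, 5.29 to 15.6% in MD and 3.98 to 7.41% in MD+CA, and MD replicate 2 was the library at 15.6%. Xist, the RNA of the inactive X chromosome of females, had 5122 to 12865 reads in every library, and the Y-linked genes Ddx3y, Kdm5d, Uty and Eif2s3y had 0 reads in all 12, which goes against the label of male mice. The clock gene Bmal1 differed by group as well, at 0.765 to 2.70 CPM (counts per 1000000, the read counts scaled by library size with edgeR's TMM factors) in CD, 0.716 to 1.94 in MD and 8.76 to 17.1 in MD+CA, and Per3, a clock gene of the opposite phase, at 28.4 to 48.2, 56.8 to 91.1 and 1.52 to 11.9 CPM. The labels give no hour of collection, so hour and treatment cannot be told apart. Over all genes MD replicate 2 stood apart, with the lowest CPM of the 12 libraries for 23.5% of them and the highest for 22.5%, while of the 41 genes tested here it was lowest for 5 and highest for 4. Library 3 of MD+CA stood apart in the genes described here, and the median differences and the Loxl4 result are also given without it below.

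One gene of the 41 passed the test between groups, and in both comparisons of MD+CA. Loxl4, a copper-dependent lysyl oxidase-like enzyme that acts on collagen, rose in MD+CA. In MD against CD none of the 41 passed. At an unadjusted p under 0.05 by edgeR, 9 genes had a higher mean in MD, beside 10.5% of all genes tested. They were Dcn, Acta2, Col1a1, Eln, Bgn, Mmp2, Sparc, Tagln and Pdgfrb. Another 4, the collagens Col18a1 and Col15a1, fibronectin Fn1 and the receptor Ngfr, had a lower mean, beside 9.4%. MD replicate 3 was highest for the contractile genes Acta2 and Tagln, at 19.7 and 26.7 CPM. Without it their log2 differences were 1.13 and 0.57. Log2 differences with their standard errors (SE) come from edgeR's quasi-likelihood fit over all 12 libraries, with p-values adjusted over 13631 genes by the Benjamini-Hochberg method and a threshold of 0.05.

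**Figure D1:**
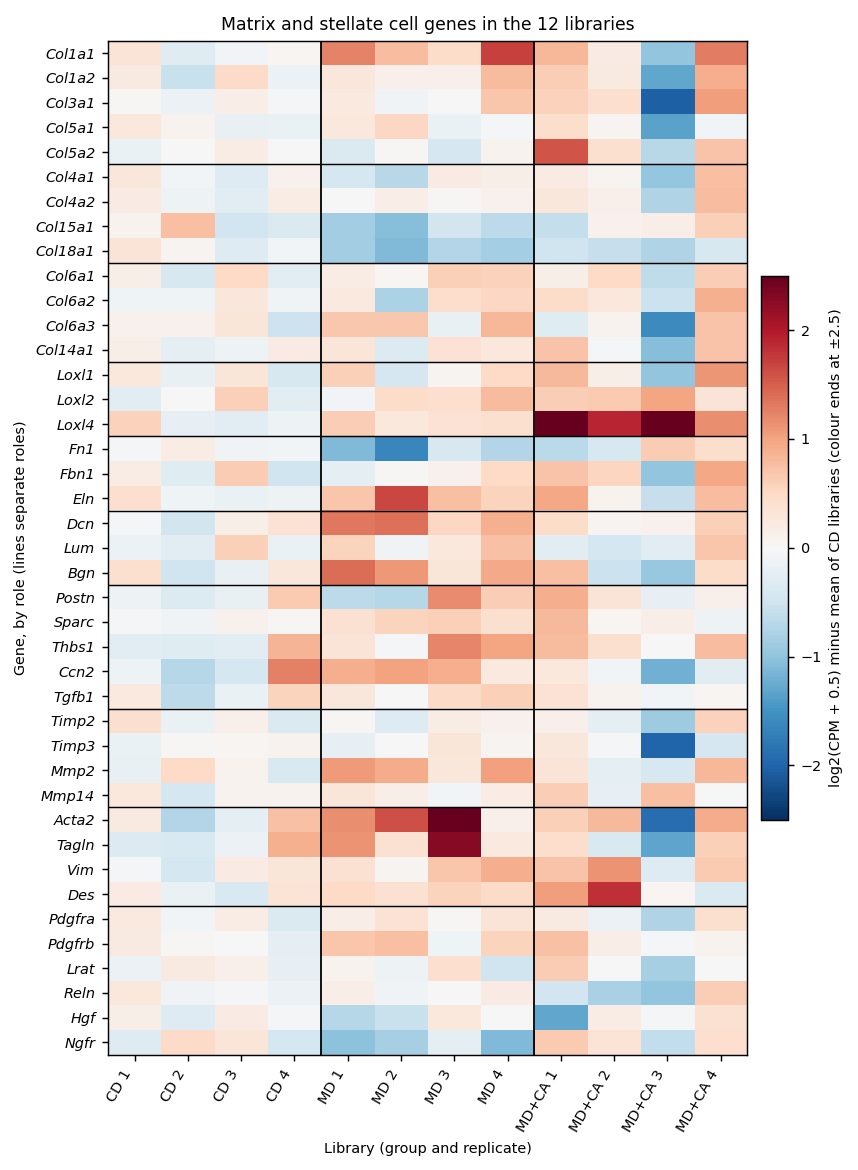
Each row is 1 of the 41 tested genes, grouped by role, and each column 1 library. Colour is log2(CPM + 0.5) minus the mean of the 4 CD libraries, with the colour scale ending at 2.5 in both directions. The Loxl4 row is red across MD+CA, the Col18a1 row is blue across MD, and the column of MD+CA replicate 3 is blue for most collagens.

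Loxl4 had 0.878, 0.304, 0.268 and 0.348 CPM in CD replicates 1 to 4. It had 0.911, 0.611, 0.676 and 0.716 CPM in MD. In MD+CA it had 9.64, 2.95, 7.85 and 1.56 CPM. The lowest MD+CA library was above the highest of the other 8, and within MD+CA the libraries spread widely, with replicate 4 the lowest. The rise over MD was 2.88 (SE 0.54) on the log2 scale, with an adjusted p of 0.0178 by edgeR's quasi-likelihood test. The rise over CD was 3.53 (SE 0.57), with an adjusted p of 0.0135. Both comparisons use the same MD+CA libraries. Without CD replicate 2 the difference from CD was 3.40 with an adjusted p of 0.0598, and without CD replicate 4 it was 3.41 with an adjusted p of 0.0719, so the call against CD was lost there. The difference of MD from CD was not among those with an unadjusted p under 0.05. Genes of resident Kupffer cells, the liver's own macrophages, moved with the same groups: all 12 of the list had a higher mean in MD+CA than in MD, 5 of them passed, and their summed level was 483 to 903 CPM in MD+CA against 231 to 404 in MD and 321 to 371 in CD. No marker of that list was at 0 in all libraries, and its part in the Loxl4 result was not tested.

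The AhR-response core is the 5 bases GCGTG, or CACGC read on the other strand, that the receptor and its partner ARNT contact. The RefSeq promoter of Loxl4, 250 bases before to 50 bases after its start at chr19:42612757-42613056 on the minus strand of GRCm38.p6, is shown because this was the gene that passed, and the 1 match, its first base 162 bases before the start, is in capitals.
Loxl4: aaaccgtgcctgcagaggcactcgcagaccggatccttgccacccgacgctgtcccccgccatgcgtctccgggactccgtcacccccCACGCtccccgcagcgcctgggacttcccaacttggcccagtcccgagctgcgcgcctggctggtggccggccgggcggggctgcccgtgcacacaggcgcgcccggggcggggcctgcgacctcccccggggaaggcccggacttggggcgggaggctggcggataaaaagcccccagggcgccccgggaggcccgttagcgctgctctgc
The core, searched on both strands, was in 32.4% of the 32851 RefSeq promoters of 300 bases. It was in 13 of the 32 promoters found for 28 of the 43 genes and so is common among promoters. The CArG box of serum response factor was in 1.63% of all promoters and in none of the 32, and TGANTCA, the AP-1 site, was in 7.81% of all and in the promoter of Col6a1 alone among these genes. A match describes letters and not binding.

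Of the other cross-linking enzymes, Loxl2 had 3.18, 3.95, 6.26 and 3.20 CPM in CD. It had 3.78, 5.70, 5.48 and 7.32 CPM in MD and 6.43, 6.55, 8.36 and 5.10 in MD+CA. The groups overlapped, and the difference of MD+CA from CD was 0.67 (SE 0.28), adjusted p = 0.383 by edgeR. Loxl1, which acts on elastin, averaged 1.02 ± 0.352 (SD, n = 4), 1.25 ± 0.522 and 1.55 ± 1.07 CPM in CD, MD and MD+CA. Lox, the founding member of the family, had 0 to 7 reads a library, or 0 to 0.573 CPM, too few for a test.

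Between MD and CD, 0 of the 41 genes passed edgeR's test, beside 0.088% of all genes tested, 0.044% upward and 0.044% downward. By DESeq2 2 passed, beside 4.68% of all genes, and by limma voom 2, beside 2.74%, Col18a1 and Dcn both times. At an unadjusted p under 0.05 there were 9 with a higher mean in MD, beside 10.5% of all genes, and 4 with a lower mean, beside 9.4%. Thus 13 of 41 reached that level where the share of all genes in either direction was 19.9%. The 41 genes had a median log2 difference of 0.31, beside 0.04 over all genes, and 33 of them were above 0, a side that 53.7% of all genes took while 46.3% were below 0. In 5 genes every MD library was above every CD library, namely Col1a1, Eln, Dcn, Sparc and Des, beside 5.99% of all genes. In 2, Col18a1 and Fn1, every MD library was below every CD library, beside 7.12%. Marker lists of other cell types differed in part between the same groups, with summed levels that overlapped in each list given here. Of 14 sinusoidal endothelial markers 12 had a higher mean in MD and 5 had an unadjusted p under 0.05, with a summed level of 177 to 268 CPM in CD and 243 to 352 in MD. Portal fibroblast markers without Gas6 summed to 8.71 to 16.5 CPM in CD and 12.6 to 17.5 in MD, Gas6 alone had 49.6 to 86.1 and 81.2 to 113 CPM, and none of the 7 tested had an unadjusted p under 0.05. Mesothelial markers summed to 4.17 to 9.25 CPM in CD and 7.84 to 24.9 in MD, and without Krt19 to 2.64 to 7.06 and 4.21 to 9.81. Of 9 hepatocyte markers 7 had a lower mean in MD, with sums of 62230 to 77960 CPM in CD and 37900 to 67760 in MD. The 37900 and the endothelial 352 were both of MD replicate 2, and the other MD libraries had hepatocyte sums of 64990 to 67760, within the CD range. In none of these lists was a marker at 0 in all libraries, and their part in the differences was not tested.

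**Figure D2:**
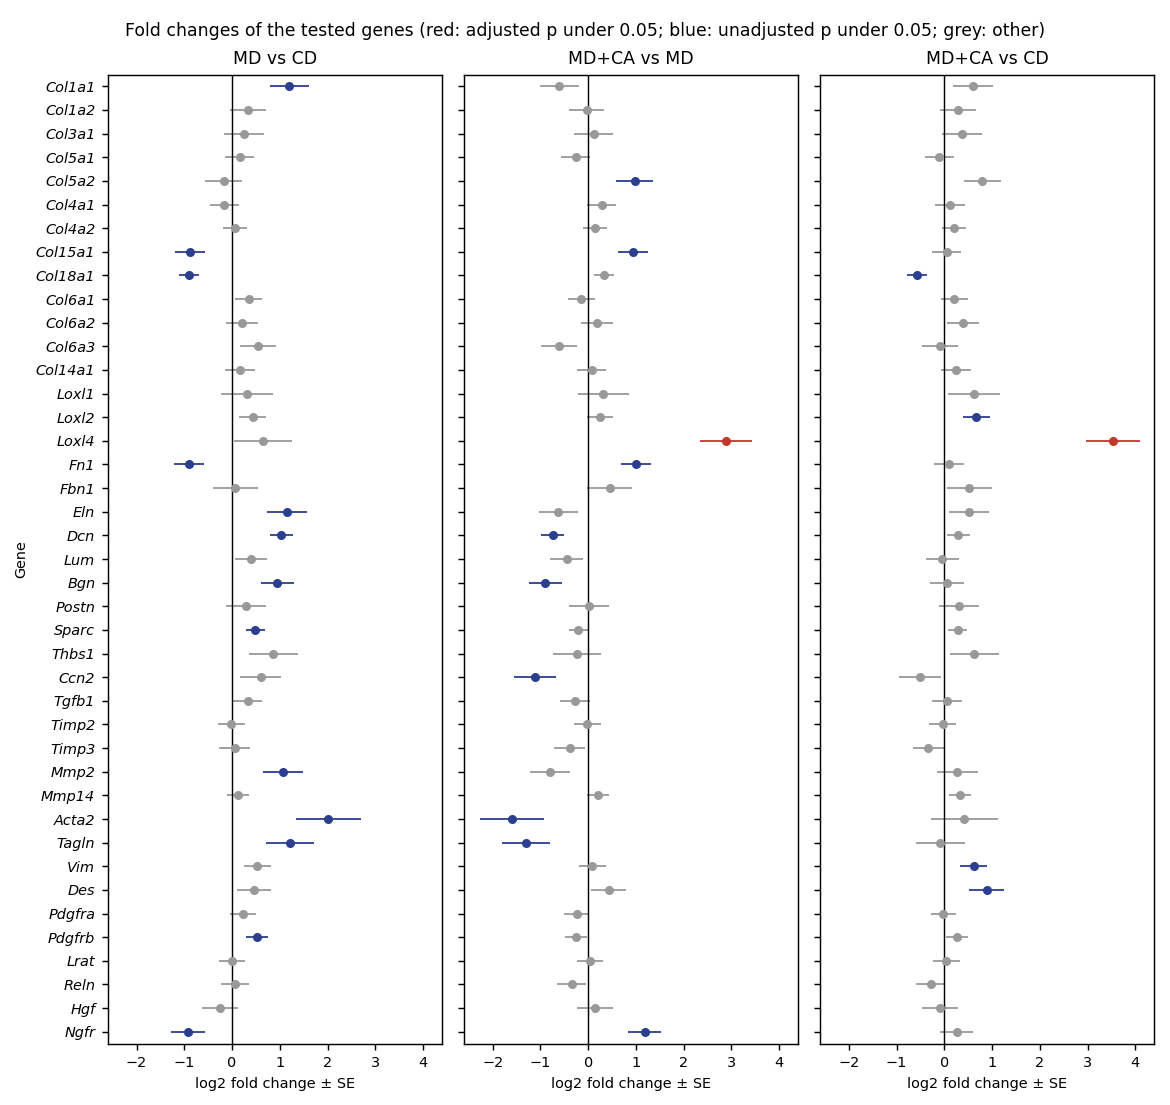
Log2 differences of the 41 tested genes in the 3 comparisons with bars of 1 SE, from edgeR's fit. Red marks an adjusted p under 0.05, which is Loxl4 in both comparisons of MD+CA, and blue an unadjusted p under 0.05.

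Between MD+CA and MD, 1 of the 41 passed, upward, beside 1.06% of all genes tested upward and 2.71% in either direction. By DESeq2 4 passed, beside 8.83% of all genes, and by limma voom 1, beside 2.99%. At an unadjusted p under 0.05 there were 5 above and 5 below, beside 11.6% of all genes in each direction. The median log2 difference was -0.02, beside -0.00 over all genes, with 20 genes above 0 and 21 below, where 49.7% and 50.3% of all genes stood. Loxl4 alone did not overlap between the groups, beside 4.99% of all genes upward, and no gene did downward, beside 5.21%. Markers of other cell types went both ways. All 12 resident Kupffer markers had a higher mean in MD+CA, and 5 passed. So had 6 of 9 hepatocyte, 5 of 7 recruited macrophage and 4 of 7 portal fibroblast markers. A lower mean was found for 4 of 5 smooth muscle and 5 of 6 bile duct markers. Of 14 sinusoidal endothelial markers 13 had a lower mean than in MD, with a median of -0.52 and 7 at an unadjusted p under 0.05, and summed levels of 123 to 270 CPM in MD+CA. Of 4 tested mesothelial markers 3 had a lower mean, with a median of -0.99. Outside the Kupffer list no marker passed, none in these lists was at 0 in all libraries, and their part was not tested. Against CD, the MD+CA group had 1 gene that passed upward, beside 0.22% of all genes upward and 0.528% in either direction. By DESeq2 2 passed, beside 2.45%, and by limma voom 1, beside 1.4%. There were 4 above CD at an unadjusted p under 0.05, beside 6.16% of all genes, and 1 below, beside 4.37%. The median was 0.26, beside 0.02 over all genes, and 30 genes were above 0, where 52% of all genes were and 48% were below. Loxl4 was the 1 gene with every MD+CA library above every CD library, beside 3.48% of all genes, and Col18a1 the 1 gene with every one below, beside 2.92%. The comparisons share groups with each other, and their values are given side by side below.

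Replicate 3 of MD+CA stood apart in most of these genes. It had the lowest CPM of all 12 libraries for 23 of the 41, or 56.1%, where it was lowest for 14.5% of all genes tested. It lay below the other 3 libraries of its group for 31 of 41, where that held for 28.2% of all genes. The median ratio of its value to the median of those 3 was 0.466 over the 41 genes and 0.982 over all genes, and 26 of the 41 were at under 0.5 of that median, where 8.54% of all genes were. Col3a1, the chain of collagen III, had 4.30 CPM in it and 25.8 to 40.1 in the other 3 libraries. Timp3, a matrix-bound inhibitor of metalloproteases, had 8.48 and 26.1 to 43.1 CPM. Mmp14, a membrane-anchored collagenase, went the other way with 34.4 CPM, above the 17.4 to 31.4 of the others, as did Loxl2 and Fn1. Markers of some cell types were low in it as well, and those of others were not. Sinusoidal endothelial markers summed to 123 CPM, beside 188 to 270 in the other 3 libraries. Vascular smooth muscle markers summed to 148 beside 193 to 258, and mesothelial markers to 2.15 beside 4.18 to 12.2. Other stellate cell genes summed to 251 beside 273 to 545, and without Vipr1 to 225.6 beside 226.0 in replicate 4. Bile duct markers, at 188 beside 95.1 to 112, and recruited macrophage markers, at 458 beside 98.4 to 183, were highest in it. Resident Kupffer markers, at 721 beside 483 to 903, and hepatocyte markers, at 65910 beside 53010 to 70090, lay within the range of the others. Of the portal fibroblast list, Gas6, a ligand of receptor tyrosine kinases that made 84.3% of the list's sum, was at 135 CPM in it, above its group, while the other 9 genes summed to 6.46 CPM beside 16.9 to 23.8. Whether these markers play a part in the low values was not tested. In a bulk sample fewer cells of a type and less RNA per cell cannot be told apart. Without this library the median log2 difference of the 41 genes was 0.11 in MD+CA against MD and 0.35 in MD+CA against CD, and Loxl4 had 2.66 with an adjusted p of 0.0433 and 3.30 with an adjusted p of 0.0397 by edgeR.

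**Figure D3:**
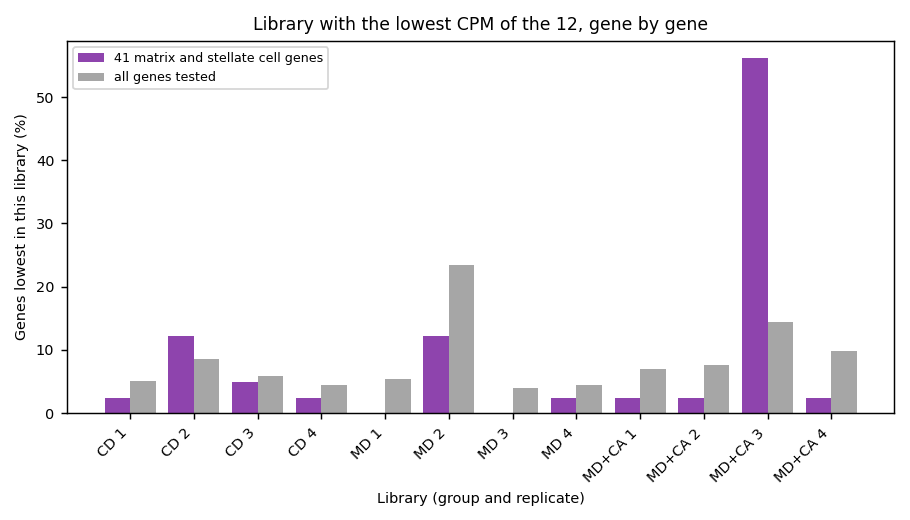
For each of the 12 libraries, the percentage of the 41 genes (purple) and of all tested genes (grey) that had their lowest CPM there. MD+CA replicate 3 holds 56.1% of the 41 genes and 14.5% of all genes.

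Genes were set beside each other per length in TPM (transcripts per 1000000, a unit corrected for transcript length), summed over coding and other transcripts. The level of Fn1 in CD was 761 ± 98.6 (SD, n = 4), that of Col18a1 326 ± 109, that of Dcn 67.8 ± 17.7 and that of Bgn 24.3 ± 9.09. Next were Vim at 17.2 ± 4.01 and Sparc at 16.0 ± 1.30, which did not differ beyond their spread, and Mmp14 at 11.6 ± 4.46. Collagens of scar were far below, with Col3a1 at 4.72 ± 0.928, Col1a2 at 1.78 ± 0.592 and Col1a1 at 0.710 ± 0.235 TPM. Loxl4 rose from 0.145 ± 0.110 TPM in CD to 1.64 ± 1.18 in MD+CA, close to the level of Loxl2 there, 1.62 ± 0.419.

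Fibrillar collagens form the banded fibres of scar. Col1a1, the main chain of collagen I, had 4.53, 2.74, 3.31 and 3.62 CPM in CD. It had 8.90, 6.31, 4.96 and 12.7 CPM in MD and 6.61, 4.09, 1.52 and 9.17 in MD+CA. Every MD library was above every CD library, with replicate 4 the highest, and MD+CA overlapped both. The difference of MD from CD was 1.20 (SE 0.42), adjusted p = 0.149 by edgeR. That of MD+CA from MD was -0.60 (SE 0.41), adjusted p = 0.389, and that of MD+CA from CD 0.60 (SE 0.42), adjusted p = 0.733. Col5a2, a collagen V chain that sets the width of fibres, had 2.77 to 3.67 CPM in the CD libraries and 2.25 to 3.42 in those of MD. Its MD+CA libraries were at 10.4, 4.34, 1.77 and 5.53 CPM, 3 of them above all others and replicate 3 below them all. Against MD this was 0.97 (SE 0.39), adjusted p = 0.153. Col1a2, the partner chain of collagen I, averaged 6.89 ± 2.19, 8.67 ± 2.17 and 8.40 ± 4.51 CPM in CD, MD and MD+CA, Col3a1 19.3 ± 1.84, 23.0 ± 6.03 and 24.8 ± 14.97, and Col5a1 10.8 ± 1.75, 12.1 ± 2.69 and 9.98 ± 4.46 (SD, n = 4). In none of the 5 was an adjusted p under 0.05.

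Collagens of basement membranes line vessels and the sinusoid. Col18a1, whose C-terminal fragment is endostatin, had 1505, 1278, 970 and 1154 CPM in CD. It had 660, 562, 726 and 668 CPM in MD and 856, 812, 720 and 919 in MD+CA. The CD libraries were the 4 highest of the 12, and the MD and MD+CA libraries overlapped at 1 point, with replicate 3 of each crossing. The difference of MD from CD was -0.91 (SE 0.21), adjusted p = 0.104 by edgeR, and it passed with DESeq2 (8.49e-05) and limma voom (0.0262). That of MD+CA from CD was -0.57 (SE 0.21), adjusted p = 0.277, and it passed with DESeq2 (0.0414) and not with limma voom (0.165). Col15a1, a related collagen of vessels, had 9.66, 15.7, 6.35 and 6.95 CPM in CD, 4.77, 4.07, 6.46 and 5.57 in MD, and 5.88, 9.82, 10.3 and 14.0 in MD+CA. MD overlapped CD at 1 library, its replicate 3. The differences were -0.88 (SE 0.31), adjusted p = 0.155, for MD against CD and 0.93 (SE 0.31), adjusted p = 0.102, for MD+CA against MD. With an offset for the average transcript length they shrank to -0.24 and 0.33, and without MD+CA replicate 1 the second was 1.12 with an adjusted p of 0.047. Col4a1 and Col4a2, the common chains of collagen IV, averaged 16.2 ± 2.93 and 9.99 ± 1.67 CPM in CD, 14.5 ± 4.45 and 10.5 ± 0.544 in MD, and 17.6 ± 7.90 and 11.5 ± 4.74 in MD+CA (SD, n = 4).

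Collagen VI forms beaded filaments around cells, and collagen XIV sits on the surface of fibres. Col6a1 had 8.58, 5.77, 11.2 and 6.40 CPM in CD, 8.90, 8.04, 12.0 and 11.8 in MD, and 8.63, 11.1, 4.81 and 12.1 in MD+CA. The CD and MD libraries overlapped, and the low value in MD+CA was replicate 3. Col6a3 had 12.2, 12.2, 14.0 and 7.72 CPM in CD, 18.3, 18.2, 9.92 and 20.5 in MD, and 9.001, 12.0, 3.42 and 18.9 in MD+CA. In all, 3 of the 4 MD libraries were above every CD library, and replicate 3 lay within them. Col6a2 averaged 4.64 ± 0.725, 5.32 ± 2.00 and 6.05 ± 2.46 CPM, and Col14a1 21.2 ± 3.10, 23.8 ± 4.93 and 25.0 ± 12.1, in CD, MD and MD+CA (SD, n = 4). None of the 4 had an unadjusted p under 0.05 in any comparison.

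**Figure D4:**
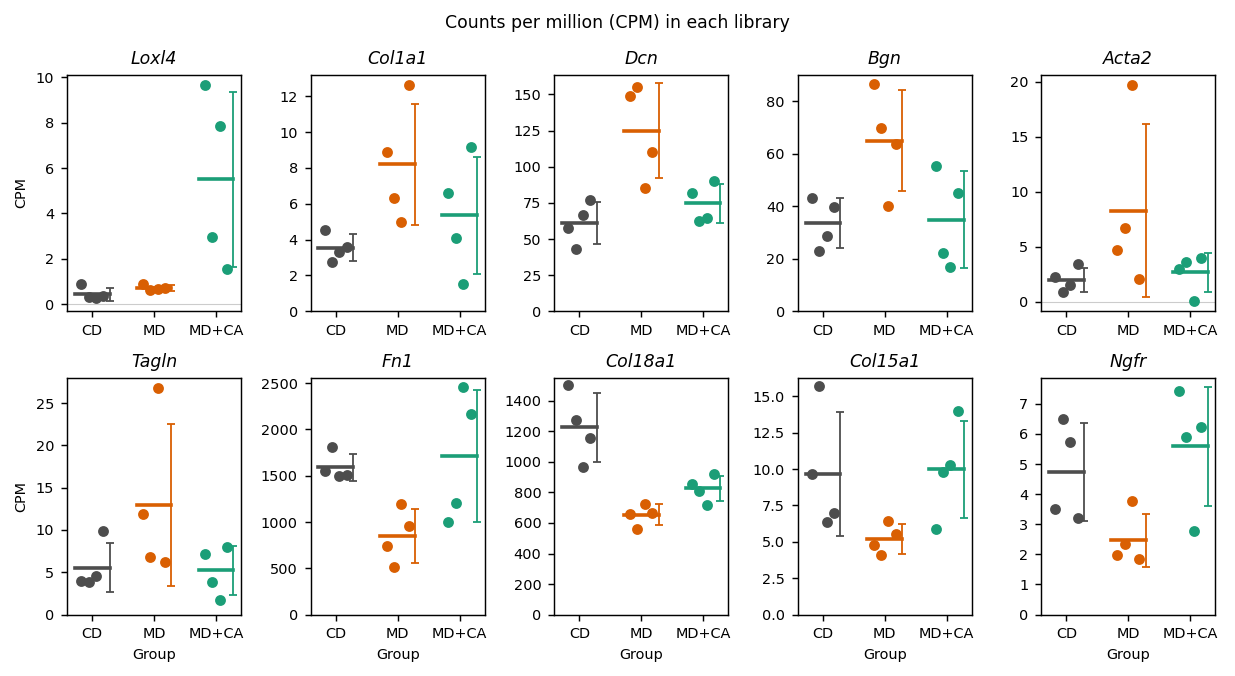
CPM in every library (points) for genes described in the text, by group, with the mean (line) and SD (bar) of 4 libraries. In the panel of Loxl4 all 4 MD+CA points, from 1.56 to 9.64, lie above the other 8, and in that of Acta2 a single MD point at 19.7 sets the mean of the group.

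Small leucine-rich proteoglycans bind collagen fibres and TGF-beta. Dcn, decorin, had 57.8, 43.1, 66.4 and 77.0 CPM in CD. It had 149, 155, 85.3 and 111 CPM in MD and 81.9, 62.4, 64.6 and 90.2 in MD+CA. Every MD library was above every CD library, and 1 MD library, replicate 3, fell within the range of MD+CA. MD against CD gave 1.03 (SE 0.24), adjusted p = 0.104 by edgeR, and MD+CA against MD gave -0.74 (SE 0.24), adjusted p = 0.0931. With DESeq2 both passed (0.00451 and 0.037), and with limma voom the first passed (0.038) and the second did not (0.106). Bgn, biglycan, had 43.1, 22.8, 28.6 and 39.8 CPM in CD, 86.6, 69.6, 40.0 and 63.5 in MD, and 55.4, 22.2, 16.7 and 45.1 in MD+CA. Its MD replicate 3 lay within the CD range. MD against CD gave 0.95 (SE 0.35), adjusted p = 0.168, and MD+CA against MD -0.90 (SE 0.35), adjusted p = 0.146. Lum, lumican, averaged 3.31 ± 1.20, 4.35 ± 1.18 and 3.19 ± 1.51 CPM in CD, MD and MD+CA (SD, n = 4). All 3 proteoglycans had their highest mean in MD.

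Elastic fibres are built of elastin on a scaffold of fibrillin. Eln, elastin, had 2.30, 1.42, 1.34 and 1.39 CPM in CD, 2.87, 6.11, 3.01 and 2.55 in MD, and 3.58, 1.72, 0.886 and 3.03 in MD+CA. Every MD library was above every CD library, with 1 high library in each, CD replicate 1 and MD replicate 2. The difference was 1.15 (SE 0.42), adjusted p = 0.164 by edgeR. Fbn1, fibrillin, averaged 1.59 ± 0.760, 1.67 ± 0.468 and 2.25 ± 1.23 CPM (SD, n = 4).

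Fibronectin is the scaffold on which cells first lay collagen, and a plasma protein of hepatocytes. Summed over coding and other transcripts, its gene Fn1 had the highest level of the 43 per length in each group. Short transcripts that do not code for fibronectin, such as Fn1-210 of 1190 bases, weigh heavily in that sum. The rank of its coding transcripts alone was not determined. Fn1 had 1554, 1808, 1501 and 1510 CPM in CD. It had 741, 513, 1198 and 954 CPM in MD and 998, 1210, 2462 and 2165 in MD+CA. Every MD library was below every CD library, and MD+CA ranged from the level of MD to above that of CD. MD against CD gave -0.90 (SE 0.32), adjusted p = 0.154 by edgeR, and MD+CA against MD 1.005 (SE 0.32), adjusted p = 0.0872.

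Fn1 was unusual among the 43 in which transcripts its reads were assigned to. Protein-coding transcripts took 24.8% of its 193063 reads, where they took over 50% in the other 42 genes and over 90% in 37. The largest share went to Fn1-202, a retained-intron transcript that starts 64.5% of the way along the gene, and the next to Fn1-210, annotated for nonsense-mediated decay, which starts 78.1% along. The 7 coding transcripts of over 7000 bases took 29.3, 35.6, 25.0 and 20.5% of the reads in CD, 9.16, 8.73, 17.4 and 12.6% in MD, and 11.9, 25.2, 17.2 and 47.8% in MD+CA. Every MD library was below every CD library, and MD+CA spanned both. The mean share of Fn1-202 was 40.6 ± 8.03% (SD, n = 4) in CD, higher in MD at 62.3 ± 6.91%, and 45.2 ± 9.41% in MD+CA.

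Col18a1 is made from 2 starts. Transcript Col18a1-202 begins at position 77166548 of chromosome 10 (GRCm38, minus strand), and the transcripts Col18a1-201 and Col18a1-203 begin 46.0 and 46.2% of the way along the gene, at 77113946 and 77113705. The downstream start took 24.1, 31.0, 25.7 and 19.8% of the reads in CD, 6.01, 4.86, 18.5 and 8.17% in MD, and 8.20, 21.5, 13.1 and 42.8% in MD+CA. Every MD library was below every CD library here too, with replicate 3 the nearest. In CPM the downstream transcripts averaged 309 ± 82.7, 63.9 ± 48.2 and 183 ± 147 (SD, n = 4), and the upstream transcript 861 ± 160, 555 ± 37.8 and 595 ± 87.7, in CD, MD and MD+CA. The RefSeq promoters of both starts, 250 bases before to 50 after, are shown because MD and CD did not overlap in the use of these starts. The RefSeq start base is in capitals. It is 77113705 downstream and 77166530 upstream, which differs from the first base of Col18a1-202 given above. The upstream one lies at chr10:77166481-77166780 and the downstream one at chr10:77113656-77113955, both on the minus strand of GRCm38.p6, and neither held the core GCGTG.
Col18a1 upstream: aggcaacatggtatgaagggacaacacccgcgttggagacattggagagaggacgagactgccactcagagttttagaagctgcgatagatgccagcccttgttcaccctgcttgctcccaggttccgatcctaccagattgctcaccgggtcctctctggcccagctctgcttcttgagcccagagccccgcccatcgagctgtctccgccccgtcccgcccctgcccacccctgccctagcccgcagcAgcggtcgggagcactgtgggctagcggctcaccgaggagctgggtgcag
Col18a1 downstream: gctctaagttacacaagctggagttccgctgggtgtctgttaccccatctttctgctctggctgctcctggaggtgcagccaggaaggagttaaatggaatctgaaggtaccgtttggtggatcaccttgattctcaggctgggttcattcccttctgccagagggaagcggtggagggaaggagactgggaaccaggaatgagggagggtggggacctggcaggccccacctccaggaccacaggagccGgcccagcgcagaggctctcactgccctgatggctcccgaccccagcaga

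The shares of both genes were tested between groups by exact 2-sided permutation tests, 6 in all, and were chosen after their values were seen. For MD against CD the exact p was 0.0286 for Fn1 and 0.0286 for Col18a1, the smallest that 70 assignments of 4 and 4 libraries give, and 0.0858 after adjustment over the 6. For MD+CA against MD the exact p was 0.143 for Fn1 and 0.171 for Col18a1. The length that Salmon set aside for the fragment differed between libraries, at 246 to 280 bases in CD, 221 to 261 in MD and 227 to 276 in MD+CA. The 3 libraries with the lowest values, MD replicate 2 at 221, MD+CA replicate 1 at 227 and MD replicate 1 at 230, held downstream Col18a1 shares of 4.86, 8.20 and 6.01%, beside 8.17 to 42.8% in the other 9. Its part in the shares was not tested. With that length as a covariate the gene-level difference of MD from CD was -0.58 for Fn1 (adjusted p = 0.463 by edgeR) and -0.93 for Col18a1 (adjusted p = 0.179). Counting the reads of protein-coding transcripts alone, the Fn1 differences were -1.97 (adjusted p = 0.124) for MD against CD and 2.02 (adjusted p = 0.0727) for MD+CA against MD.

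**Figure D5:**
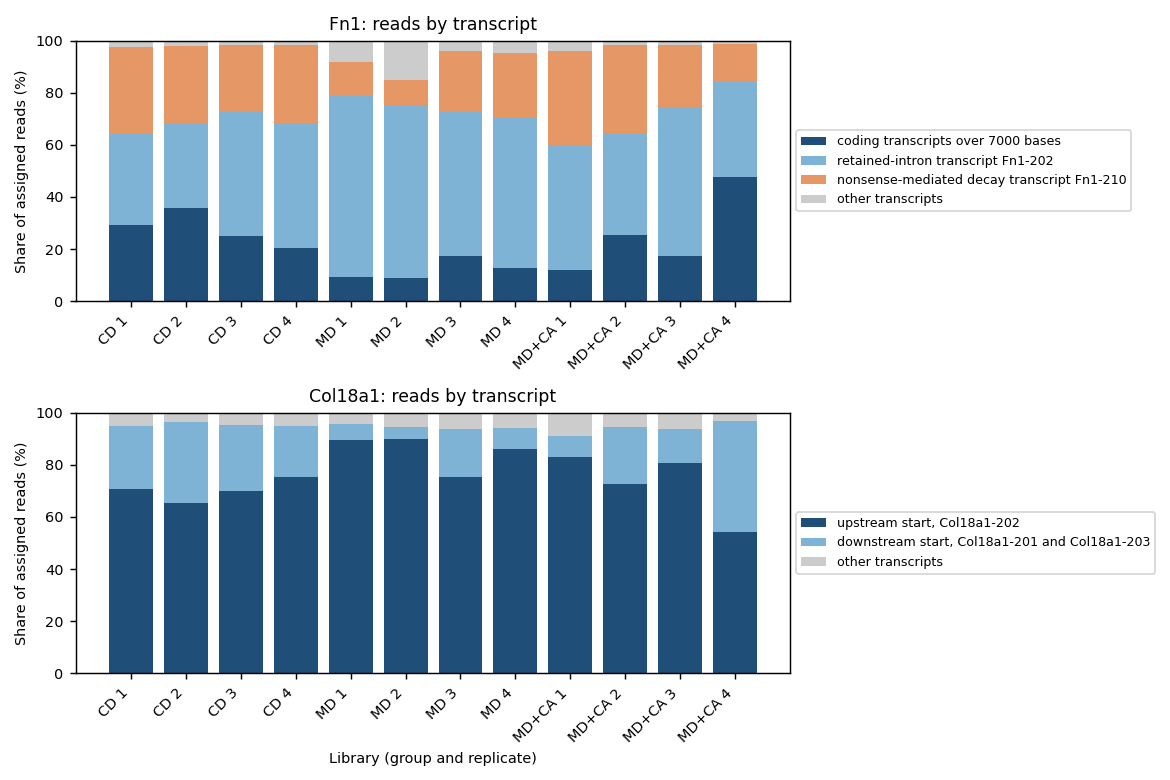
Stacked bars of the share of each gene's assigned reads, in percent, by class of transcript in each of the 12 libraries, for Fn1 (top) and Col18a1 (bottom). The dark blue long coding transcripts of Fn1, 8.73 to 17.4% in MD, and the light blue downstream start of Col18a1, 4.86 to 18.5% in MD, take smaller shares than in every CD library.

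Matricellular proteins tune how cells meet the matrix. Sparc, which binds collagen, had 27.8, 27.2, 31.1 and 29.2 CPM in CD, 37.4, 42.5, 43.6 and 38.0 in MD, and 51.2, 30.0, 32.3 and 26.5 in MD+CA. The CD and MD libraries did not overlap, and MD+CA spanned both. The difference of MD from CD was 0.49 (SE 0.20), adjusted p = 0.203 by edgeR. Ccn2, connective tissue growth factor and a target of TGF-beta and YAP, had 3.78, 2.33, 2.95 and 10.7 CPM in CD, 8.27, 8.86, 8.26 and 5.01 in MD, and 5.05, 3.93, 1.52 and 3.37 in MD+CA. MD and MD+CA met at 1 library of each, and CD replicate 4 was the highest of the 12. MD+CA against MD gave -1.11 (SE 0.44), adjusted p = 0.151. Postn, periostin, averaged 6.61 ± 2.48, 8.14 ± 5.46 and 8.22 ± 2.99 CPM in CD, MD and MD+CA. Thbs1, thrombospondin, which activates latent TGF-beta, averaged 0.830 ± 0.605, 1.54 ± 0.790 and 1.30 ± 0.431 CPM. Tgfb1, the cytokine itself, averaged 2.82 ± 1.15, 3.55 ± 0.716 and 2.94 ± 0.452 CPM (SD, n = 4), differences within the spread of its libraries.

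Among proteases and inhibitors, Timp1, an inhibitor known to be raised in fibrotic liver, had 0 reads in 11 libraries and 2 reads, 0.150 CPM, in MD replicate 3. A count of 0 allowed at most 0.203 to 0.38 CPM in these libraries, counting 3 reads as the limit, and no fold change was calculated. Mmp2, a gelatinase of stellate cells, had 0.946, 1.82, 1.25 and 0.765 CPM in CD, 2.94, 2.65, 1.50 and 2.87 in MD, and 1.56, 0.900, 0.760 and 2.42 in MD+CA. Here 3 MD libraries were above all CD libraries, and replicate 3 was within them. The difference of MD from CD was 1.07 (SE 0.42), adjusted p = 0.188 by edgeR. Mmp14 had 24.4, 14.8, 21.6 and 21.6 CPM in CD, 25.1, 22.7, 19.4 and 23.2 in MD, and 31.4, 17.4, 34.4 and 20.4 in MD+CA, with all 3 groups overlapping. Timp2, which takes part in the activation of Mmp2, averaged 9.48 ± 2.30, 9.35 ± 1.43 and 9.20 ± 3.89 CPM, and Timp3 35.4 ± 2.86, 36.8 ± 5.59 and 28.0 ± 14.8 (SD, n = 4).

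Of the contractile and filament genes, Acta2, alpha smooth muscle actin, had 2.23, 0.912, 1.52 and 3.41 CPM in CD. It had 4.77, 6.72, 19.7 and 2.07 CPM in MD and 3.03, 3.60, 0.127 and 3.98 in MD+CA. MD replicate 3 was far above the other 11 libraries and MD+CA replicate 3 far below. MD against CD gave 2.01 (SE 0.68), adjusted p = 0.141 by edgeR, MD+CA against MD -1.60 (SE 0.67), adjusted p = 0.173, and MD+CA against CD 0.42 (SE 0.70), adjusted p = 0.931. Tagln, transgelin, had 3.92, 3.85, 4.56 and 9.87 CPM in CD, 11.8, 6.82, 26.7 and 6.21 in MD, and 7.16, 3.85, 1.77 and 8.04 in MD+CA. The same MD and MD+CA libraries were its highest and lowest. MD against CD gave 1.21 (SE 0.50), adjusted p = 0.204, and MD+CA against MD -1.30 (SE 0.50), adjusted p = 0.144. Some markers of vascular smooth muscle and Krt19, a keratin of bile ducts and mesothelium, were high in that MD library too. Myh11, smooth muscle myosin, had 47.7 CPM in it beside 2.79 to 23.9 in the other 11. Cnn1, calponin, had 11.6 beside 0 to 1.04, and Krt19 had 20.7 beside 0.810 to 3.31. The smooth muscle list without Mylk summed to 78.9 CPM in it, beside 17.3 to 24.75 in the other MD libraries. Mylk, 87.5% of that list's sum, was at 192 CPM there, its lowest in MD. Mesothelial markers without Krt19 were also at their lowest of MD there, with 4.21 CPM. With limma voom the difference of MD from CD was 1.16 for Acta2. Without MD replicate 3 it was 1.13 for Acta2 (adjusted p = 0.285 by edgeR) and 0.57 for Tagln (adjusted p = 0.451), and that of MD+CA from MD was -0.72 (adjusted p = 0.491) and -0.66 (adjusted p = 0.364). The part of these other markers was not tested.

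The filament genes Vim and Des had their highest means in MD+CA. Vim, vimentin, averaged 31.4 ± 6.85, 45.3 ± 11.5 and 48.1 ± 18.0 CPM in CD, MD and MD+CA, and MD+CA against CD gave 0.62 (SE 0.28), adjusted p = 0.449 by edgeR. Des, desmin, a marker of rodent stellate cells, averaged 14.0 ± 3.32, 19.3 ± 0.933 and 25.9 ± 17.9 CPM (SD, n = 4), and MD+CA against CD gave 0.89 (SE 0.37), adjusted p = 0.379. Its MD+CA libraries ran from 10.6 to 49.9 CPM, on both sides of the MD libraries.

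Genes of stellate cell identity and signalling were detected in every library. Pdgfrb, the receptor through which platelet-derived growth factor drives stellate cell growth, had 12.4, 10.7, 10.5 and 8.97 CPM in CD, 17.4, 18.2, 9.84 and 15.8 in MD, and 17.9, 11.9, 10.3 and 11.2 in MD+CA. Here 3 MD libraries were above all CD libraries and replicate 3 was within them. The difference of MD from CD was 0.53 (SE 0.23), adjusted p = 0.227 by edgeR. Ngfr, the low-affinity neurotrophin receptor of stellate cells, had 3.51, 6.48, 5.72 and 3.20 CPM in CD, 1.96, 2.34, 3.76 and 1.83 in MD, and 7.44, 5.89, 2.79 and 6.23 in MD+CA. In all, 3 of the 4 MD+CA libraries were above every MD library, and MD+CA replicate 3 lay within the range of MD. MD against CD gave -0.92 (SE 0.35), adjusted p = 0.178, and MD+CA against MD 1.18 (SE 0.35), adjusted p = 0.0734. Lrat, the enzyme of retinyl ester storage, averaged 15.3 ± 2.31, 15.3 ± 4.14 and 15.7 ± 6.36 CPM in CD, MD and MD+CA. Reln, the secreted glycoprotein reelin, averaged 11.1 ± 1.53, 11.6 ± 1.16 and 9.05 ± 5.42 CPM. Hgf, hepatocyte growth factor, averaged 3.72 ± 0.653, 3.14 ± 1.16 and 3.48 ± 1.63 CPM, and Pdgfra, the other receptor of platelet-derived growth factor, 4.87 ± 0.981, 5.70 ± 0.654 and 4.77 ± 1.69 (SD, n = 4). Sums over 16 other stellate cell genes were 278 to 358 CPM in CD, 276 to 343 in MD and 251 to 545 in MD+CA, and none of the 15 tested passed in any comparison.

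Of the further matrix genes in 7 lists, 83 were tested. In MD against CD 0 passed by edgeR, beside 0.088% of all genes. At an unadjusted p under 0.05 by edgeR 12 were above and 2 below, beside 10.5% and 9.4% of all genes. By DESeq2 3 passed, beside 4.68% of all genes in either direction, and by limma voom 2, beside 2.74%, all upward. The median log2 difference of the 83 was 0.21. Serpinh1, the collagen chaperone HSP47, had 9.83 to 12.3 CPM in CD, 15.8 to 27.2 in MD and 9.49 to 16.8 in MD+CA, so that MD did not overlap CD, and it was picked out after its values were seen. In MD+CA against MD 2 of the 83 passed by edgeR, beside 2.71% of all genes, both downward and both from the list of 16 tested matrix glycoproteins. By DESeq2 5 passed, 1 upward and 4 downward, beside 8.83% of all genes in either direction. By limma voom 2 passed, both downward, beside 2.99%. Ccn1, a matricellular protein related to Ccn2, had 54.8, 75.1, 23.7 and 10.7 CPM in MD and 10.0, 11.7, 8.86 and 7.52 in MD+CA, and fell by 2.10 on the log2 scale, adjusted p = 0.0233 by edgeR. Tnxb, tenascin-X, had 16.4, 20.3, 8.49 and 17.9 CPM in MD and 6.61, 5.32, 4.18 and 9.68 in MD+CA, and fell by 1.28, adjusted p = 0.0409. Both overlapped between the groups. In TPM, Ccn1 had 4.70 to 7.60 in CD, 5.91 to 39.3 in MD and 4.45 to 7.29 in MD+CA. Tnxb had 0.36 to 0.90 TPM in CD, 0.53 to 1.24 in MD and 0.22 to 0.61 in MD+CA. Neither call was stable. For Ccn1 it was lost without any 1 of MD replicates 1 and 2 and MD+CA replicates 2, 3 and 4 (adjusted p = 0.0551 to 0.0688), and with limma voom (-1.17, adjusted p = 0.19). For Tnxb it was lost without any 1 of CD replicates 1, 3 and 4, MD replicates 1, 2 and 4 and MD+CA replicates 2 and 3 (adjusted p = 0.0534 to 0.113). None of the 17 tested genes of collagen folding, the 21 of TGF-beta signalling, the 10 laminins, nidogens and perlecan, the 3 ligands of platelet-derived growth factor, the 7 other metalloproteases and plasmin genes or the 9 integrins passed in that comparison by edgeR. In MD+CA against CD 0 of the 83 passed by edgeR, by DESeq2 or by limma voom, beside 0.528%, 2.45% and 1.4% of all genes. At an unadjusted p under 0.05 by edgeR 5 were above and 1 below, beside 6.16% and 4.37% of all genes.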

How the data were processed

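Liver poly(A) RNA of 12 libraries was analysed. Per the submitters' processing notes, reads went through fastp and Salmon 1.10.3, DESeq2 was used, and the build was GRCm39. The deposited files give, per the file headers, estimated counts per transcript (expected counts, reads shared out among transcripts by Salmon), TPM computed by the authors within each library, and effective lengths; options, annotation release and strandedness: not given in the sources used here. Where genes overlap or have near-identical copies, the assignment of reads is uncertain.

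Expected counts were summed per gene identifier and rounded. Genes passing filterByExpr (minimum count 10) were tested with edgeR 4.0.16, quasi-likelihood F-test, TMM scaling, 1 fit with a mean for each of 3 groups and 9 residual degrees of freedom; SE is the log2 difference divided by the square root of F. TPM, summed per gene, was used for levels between genes. The method was tested on simulated data. Within groups, the 18 pairs of libraries differed beyond sampling noise by a chi-square test of their counts.

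Transcripts were placed by identifier in GENCODE M21 (GRCm38), an older build than that of the files, and promoters were copied from RefSeq (GRCm38.p6). Intervals and limits from counts of 0 cover counting error only. The genes and lists were chosen with earlier results of these data known. All 43 genes are named; log2 differences are given for those with an unadjusted p under 0.05 and, in all comparisons, for Col1a1, Acta2 and Timp1 where tested; values in every library are given for these 3, for genes that passed and for the 2 of each role with the smallest p. Of the marker lists, Tf of the hepatocyte list was not found by its symbol.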

Additional observations from a re-analysis of the deposited data

Results flagged for a closer look

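In 6 of the 61 groups of 4 libraries examined, the highest or lowest library lay far from the other 3. The limit used flags about 1 in 20 groups of normally distributed values. That share need not hold for genes of few reads. A group such as Timp1 in MD, with 1 library above 0, is always flagged. Loxl4 had 0.878 CPM in CD replicate 1, above the 0.268 to 0.348 of the other CD libraries. Eln had 2.30 CPM in CD replicate 1 and 6.11 CPM in MD replicate 2, above the others of each group. Ccn2 had 5.01 CPM in MD replicate 4, below the 8.26 to 8.86 of the other MD libraries. Timp1 had 0.150 CPM in MD replicate 3 and 0 in the other MD libraries. Tagln had 9.87 CPM in CD replicate 4, above the 3.85 to 4.56 of the other CD libraries.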

How the results depend on the processing

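No difference of a gene given with a log2 difference changed direction under the alternatives tried, while the median of MD+CA against MD, close to 0, took both signs. Ccn1 and Tnxb lost their calls in MD+CA against MD with those 2 groups alone (adjusted p = 0.0637 and 0.082) and with fragment length as a covariate (0.168 and 0.165), and Tnxb with a length offset (0.0573). Their alternatives were added after seeing the data. Loxl4 passed in MD+CA against MD under all 24 settings, with log2 differences of 2.38 to 3.28 and adjusted p of 5.08e-05 to 0.0496. Of the genes tested here, the number that passed in MD against CD was 2 with DESeq2, 2 with limma voom and 2 with no filter on low counts (Dcn and Acta2), instead of 0. In MD+CA against MD it was 4 with DESeq2 (Loxl4, Ngfr, Dcn and Fn1) and 4 with no filter, instead of 1, and in MD+CA against CD it was 2 with DESeq2 (Loxl4 and Col18a1), instead of 1. Leaving out each library in turn gave 0 to 0, 1 to 4 and 0 to 1 genes in the 3 comparisons, with medians of 0.19 to 0.43, -0.20 to 0.11 and 0.04 to 0.35. The 4 came without MD replicate 3 (Loxl4, Ngfr, Dcn and Fn1), and without MD+CA replicate 1 Loxl4, Fn1 and Col15a1 passed.

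Over all genes the counts moved more: from 12 in MD against CD to 638 with DESeq2, 374 with limma voom, 481 with no filter, 2 with a length offset, 35 with those 2 groups alone, 6 with fragment length as a covariate, 1 with reads of protein-coding transcripts only (an alternative added after seeing the data), and 0 to 26 without 1 library. From 369 in MD+CA against MD they moved to 1203, 1017 (no filter), 183 (offset), 99 (2 groups), 142 (fragment length) and 237 (coding transcripts), and 109 to 963 without 1 library. From 72 in MD+CA against CD they moved to 334, 191 (limma voom), 390, 34, 121 (protein-coding genes only), 46, 164 and 38, and 17 to 169 without 1 library. The cause was not tested.

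With the replicate number as a block, 2 genes passed in MD+CA against MD, Loxl4 and Bgn (-1.002, adjusted p = 0.0348 by edgeR), and over all genes 664 and, against CD, 154. The labels do not say that numbers pair libraries. Same-numbered libraries correlated at -0.08 to 0.35, with 8 of 12 pairs over 0.1 and 16 of 24 matches best with their own number, a hint of pairing from the data and not from the design. Since not every pair was over 0.1, the numbers were not taken to pair libraries.

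Depth limits the genes of low level: Timp1 and Lox could not be tested, and Loxl4 rests on few reads in CD and MD.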
